A study of Homo sapiens with 22 samples.

Results

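NRF2, encoded by NFE2L2, is the transcription factor that switches on genes of the antioxidant and detoxifying defence. Its pathway was followed here through 9 genes of the 20411 listed in each RNA-seq table, picked by symbol: NFE2L2 itself, its inhibitor KEAP1, and the target genes NQO1, GCLM, GCLC, TXNRD1, SRXN1, OSGIN1 and ME1. All 9 were found in both tables. They were chosen with earlier results of these data known. FP54 is a PROTAC, a 2-headed compound that ties the RNA demethylase FTO to the VHL ubiquitin ligase so that FTO is degraded. The study asked what this does to gene expression in acute myeloid leukemia (AML). MOLM-13, a monocytic AML line, and NB4, an acute promyelocytic leukemia line, both labelled wild type, were grown with 2 μM FP54 or with the solvent DMSO for 48 hours, and 3 poly(A) RNA-seq libraries were made per line and treatment. Both are established lines, so each stands for 1 leukemia in culture. Nothing in the labels says that the 3 libraries of a group came from separate cultures, so p-values measure the spread between these libraries, which may be technical.

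In unstressed cells KEAP1 holds NRF2 in the cytoplasm and, as the adaptor of a CUL3 ubiquitin ligase, directs it to degradation. Electrophiles and oxidants modify cysteines of KEAP1, after which NRF2 builds up as a protein, pairs with a small MAF protein in the nucleus and binds antioxidant response elements near its target genes, while the repressor BACH1 competes for the same elements. NRF2 activity is therefore set mainly at the protein level, which was not measured here, and the mRNA of its targets is the usual readout. Leukemia cells carry a high oxidant load, and the enzymes encoded by these targets make glutathione, reduce thioredoxin and quinones, and supply NADPH.

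The core of an antioxidant response element can be written TGACNNNGC. It was looked for on both strands from 1000 bases before to 200 bases after the start of the canonical transcript. A match stood in this window in 6 of the 9 genes, beside 38.1% of the windows of 20046 genes. The stricter form TGACTCAGC, which contains the AP-1 site TGACTCA, stood in 2 of the 9, NQO1 and ME1, beside 1.47% of all windows. NFE2L2, KEAP1 and SRXN1 had no match to these letters in the window. The genes with a match include NQO1 and OSGIN1, with the largest changes among the 9 in NB4 cells, but a match and a large change did not always go together. In NB4 cells SRXN1, without a match, had a log2 change of 1.36, and GCLC, with a match, had 0.35. The matches are shown as a description of the windows. Each is given with its hg38 position, the gene's strand and the distance of the match from the start, reads 5′ to 3′ on the gene's strand, and has the match in capitals:
NQO1, chr16:69726992-69727030, minus strand, 455 bases before the start: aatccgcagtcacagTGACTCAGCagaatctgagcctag
ME1, chr6:83431165-83431203, minus strand, 137 bases before the start: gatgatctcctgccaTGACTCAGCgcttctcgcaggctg
GCLM, chr1:93909441-93909479, minus strand, 34 bases before the start, match on the other strand: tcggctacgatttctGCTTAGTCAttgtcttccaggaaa
TXNRD1, chr12:104215665-104215703, plus strand, 99 bases before the start: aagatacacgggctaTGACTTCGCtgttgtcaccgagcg
TXNRD1, chr12:104215756-104215794, plus strand, 8 bases before the start, match on the other strand: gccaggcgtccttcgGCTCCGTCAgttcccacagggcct
OSGIN1, chr16:83952668-83952706, plus strand, 557 bases before the start: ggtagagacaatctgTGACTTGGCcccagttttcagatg
GCLC, chr6:53545948-53545986, minus strand, 870 bases before the start, match on the other strand: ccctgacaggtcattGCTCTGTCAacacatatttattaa

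The NQO1 and ME1 runs hold the strict form and the others the core alone. ME1 had 2 more core matches after its start. The runs of OSGIN1 and GCLC lie inside the annotated span of the gene, since longer transcripts of both begin farther upstream. A match is a description of the letters in the window, and binding of NRF2 to it was not measured.

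The libraries held between 5833284 reads on genes (MOLM-13, FP54 replicate 2) and 22331811 reads (NB4, DMSO replicate 3), and the FP54 libraries of NB4 cells, at 10594715 to 13069226 reads, were shallower than their DMSO libraries. Values are RPKM, reads scaled by exon length and library total, and were compared as log2(RPKM + 0.1) with limma where a gene's mean reached 1 RPKM. Calls needed p below 0.01 and a log2 change of 0.5 or more in size. Benjamini-Hochberg adjusted p-values over all genes tested are given beside the calls. Myeloid markers were expressed in both lines, with SPI1 at 59.2 to 185 RPKM, and the erythroid markers summed to at most 0.235 RPKM and the lymphoid ones to at most 1.83 RPKM. MPO, the granule peroxidase of myeloid precursors, was lower with FP54 in every library, at 1082 to 1149 against 2036 to 2263 RPKM in NB4 and 3.29 to 4.64 against 12.8 to 18.1 RPKM in MOLM-13, and its part in the results was not tested. The 4 epithelial and stromal markers summed to 7.83 to 11.7 RPKM in NB4 cells, nearly all of it EPCAM, with KRT19 at 0 in all NB4 libraries. The mRNA of FTO was at 1.01 RPKM with either treatment in MOLM-13, and its log2 fold change among NB4 libraries was −0.41 (adjusted p = 0.0119).

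Most of the target genes rose in NB4 cells and none was called in MOLM-13 cells, and the mRNA of NFE2L2 and KEAP1 was called in neither. In NB4 cells, 5 of the 8 members tested were called higher, against 18.6% of the 9853 genes tested, and 0 were called lower by limma, against 10.7%, with 0 lower also at an unadjusted p below 0.05 and by limma-voom. The 5 were NQO1, GCLM, TXNRD1, SRXN1 and ME1, and GCLC joined them at an adjusted p below 0.05, a cutoff without a minimum fold (29.8% of all genes were higher and 22% lower by it). The median log2 fold change of the 8 was 0.85, beside 0.07 over all genes tested. Since the members were chosen with earlier results of these data known, such counts and medians describe them and do not test the set. In bulk libraries, more cells that use a gene and more of its RNA per cell cannot be told apart. SRXN1 passed the filter on low values only through its FP54 libraries, so it had to be higher there. Without it 4 of 7 were called higher, with a median of 0.69. OSGIN1 did not pass the filter. In MOLM-13 cells, 0 of the 6 members tested with limma were called higher, against 9.3% of 9710 genes, and 0 lower, against 9.04%. Their median log2 fold change was −0.07, beside 0.0033 over all genes. At an adjusted p below 0.05 there were also 0, where 9.84% of all genes were higher and 9.32% lower. At an unadjusted p below 0.05 there was 1, GCLC, and limma-voom on recovered reads called 1 higher and 0 lower.

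**Figure D1:**
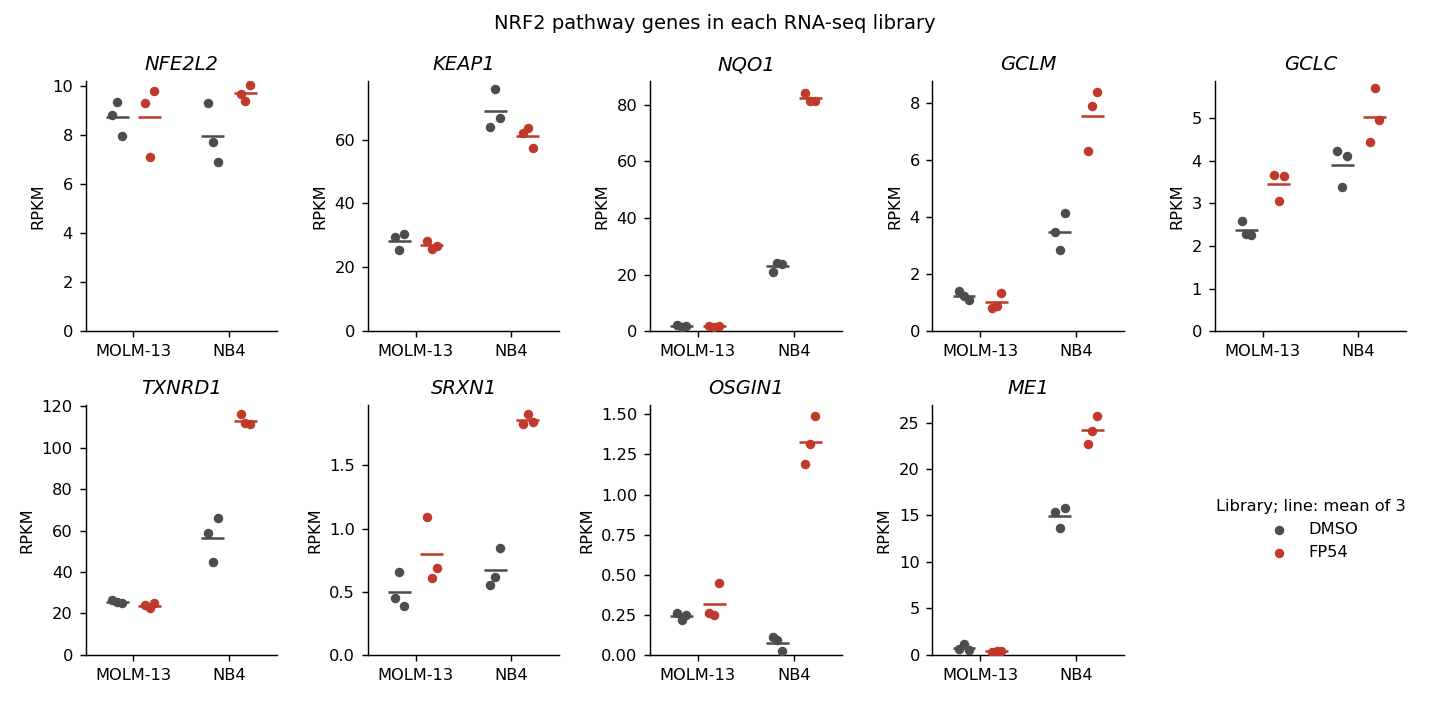
RPKM of the 9 genes in each of the 12 libraries, 1 panel per gene, with DMSO libraries in grey, FP54 libraries in red and a line at the mean of each 3. In NB4 cells the FP54 points of NQO1, GCLM, TXNRD1, SRXN1, OSGIN1 and ME1 lie clear above the DMSO points, whereas NFE2L2 and KEAP1 change little.

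The difference between the lines was tested itself, as the interaction of line and treatment over 8849 genes, with all 12 libraries in 1 limma fit. Of the 6 members tested in both lines, 3 had a larger FP54 effect in NB4 cells at an adjusted p below 0.05, against 10.5% of all genes, and 0 a smaller one, against 3.75%. These were NQO1, with a log2 difference of 1.90 (SE 0.202, adjusted p = 2.15e-05), GCLM, with 1.38 (SE 0.273, adjusted p = 0.00355), and TXNRD1, with 1.13 (SE 0.181, adjusted p = 0.000714). For GCLC the difference was −0.17, with a 95% interval of −0.60 to 0.26. For NFE2L2 it was 0.30, with an interval of −0.14 to 0.73, and for KEAP1 −0.10, with an interval of −0.43 to 0.23. These intervals hold both 0 and changes of some size, so a like effect in both lines is not shown for the 3. At an unadjusted p below 0.05 0 members had a smaller effect in NB4 cells, and limma-voom called 0 as well. The choice of members with earlier results known makes these counts, too, a description.

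NFE2L2 (ENSG00000116044, chr2:177218667-177392756, minus strand) encodes NRF2. In MOLM-13 cells it was at 8.82, 9.35 and 7.94 RPKM in DMSO replicates 1 to 3 and at 9.31, 7.09 and 9.79 RPKM in FP54 replicates 1 to 3. The FP54 libraries held both the lowest and the highest value. The fitted log2 change was −0.0062 (SE 0.164, adjusted p = 0.983). In NB4 cells the gene was at 9.28, 7.71 and 6.88 RPKM with DMSO and 9.66, 9.36 and 10.0 RPKM with FP54. Every FP54 library there lay above every DMSO library, as was so for 34.3% of genes in this line, but the log2 fold change of 0.29 (95% interval 0.03 to 0.55) had an adjusted p of 0.0562.

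The annotation bears on the NFE2L2 values. The exons of all its transcripts together cover 14975 bases, 6.12 times the 2446 bases of the canonical transcript, so its RPKM is low for the reads it holds and is not a good measure of its level against other genes. Of these bases 3509 are also exons of HNRNPA3, a splicing factor gene on the opposite strand, and whether the counting used strand was not stated. A noncoding RNA gene on the same strand shares 2037 of the exon bases of NFE2L2. HNRNPA3 fell in MOLM-13 cells, with a log2 fold change of −0.85 (adjusted p = 0.0213), and in NB4 cells its change was −0.50 (adjusted p = 0.000429). The part of these shared exons in the NFE2L2 values was not tested.

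KEAP1 (ENSG00000079999, chr19:10486125-10503558, minus strand), the adaptor that turns NRF2 over, was among the most abundant of the 9. The MOLM-13 libraries held 29.5, 25.4 and 30.3 RPKM with DMSO and 28.3, 25.8 and 26.8 RPKM with FP54. The groups overlapped, with a log2 fold change of −0.07 (95% interval −0.37 to 0.22, adjusted p = 0.739). In NB4 cells it was at 64.0, 75.8 and 66.7 RPKM with DMSO and at 62.0, 63.8 and 57.3 RPKM with FP54. All 3 FP54 libraries were below the DMSO libraries, as for 26.2% of genes in NB4 cells, and the log2 fold change of −0.17 (95% interval −0.37 to 0.03, adjusted p = 0.132) was not called.

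GCLM and GCLC encode the modifier and the catalytic subunit of glutamate-cysteine ligase, the first and rate-limiting enzyme of glutathione synthesis. GCLM (ENSG00000023909, chr1:93885199-93909456, minus strand) was at 3.46, 2.85 and 4.13 RPKM in the DMSO libraries of NB4 cells and at 6.31, 7.87 and 8.38 RPKM in the FP54 libraries. It rose to 2.16 times its DMSO mean, a log2 fold change of 1.09 (SE 0.151, adjusted p = 0.000193). In MOLM-13 libraries it was near the filter, at 1.39, 1.22 and 1.11 RPKM with DMSO and 0.816, 0.885 and 1.35 RPKM with FP54. FP54 replicates 1 and 2 were under all DMSO libraries and replicate 3 was not, and the log2 fold change of −0.29 (95% interval −0.82 to 0.25) had an adjusted p of 0.422. The 28 reads of GCLM in FP54 replicate 2 show how few reads this rests on.

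GCLC (ENSG00000001084, chr6:53497341-53616970, minus strand) was the one tested member whose FP54 libraries all lay above the DMSO libraries in MOLM-13 cells. It was at 2.58, 2.29 and 2.26 RPKM with DMSO and at 3.68, 3.07 and 3.66 RPKM with FP54. This was so in that line for 20.2% of genes. Its log2 fold change of 0.52 (SE 0.168) came with a p of 0.0106, just outside the cutoff, and an adjusted p of 0.0538. It was past the cutoff without FP54 replicate 2, the shallowest library, at 0.61 (adjusted p = 0.0372), and under 4 other settings of the fit. In NB4 cells GCLC went from 4.23, 3.38 and 4.12 RPKM to 4.44, 5.70 and 4.95 RPKM, again without overlap. The log2 fold change of 0.35 (SE 0.129, adjusted p = 0.0404) was under the minimum fold. Of the 8618 bases of its joined exons, 305 are shared with the antisense transcript GCLC-AS1 and 529 with a noncoding RNA gene on the same strand.

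TXNRD1 (ENSG00000198431, chr12:104215779-104350307, plus strand) encodes cytosolic thioredoxin reductase, the selenoenzyme that keeps thioredoxin reduced with NADPH. In NB4 cells it was at 59.1, 44.6 and 66.3 RPKM with DMSO and at 116, 112 and 111 RPKM with FP54. It rose to 2.00 times its DMSO mean, with a log2 fold change of 1.02 (SE 0.127, adjusted p = 0.000102), and with FP54 had the highest RPKM of the 9. In MOLM-13 cells the values were 26.7, 25.8 and 24.8 RPKM with DMSO and 23.9, 22.5 and 25.0 RPKM with FP54. These groups overlapped, with a log2 fold change of −0.12 (95% interval −0.39 to 0.16, adjusted p = 0.551).

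SRXN1 (ENSG00000271303, chr20:646615-653200, minus strand) encodes sulfiredoxin, which restores overoxidised peroxiredoxins. In NB4 cells it was at 0.555, 0.613 and 0.850 RPKM with DMSO and at 1.83, 1.90 and 1.85 RPKM with FP54, from 29 to 61 reads per library. It rose to 2.77 times its DMSO mean, a log2 fold change of 1.36 (SE 0.162, adjusted p = 7.14e-05). It was tested only because its FP54 libraries lifted the mean past 1 RPKM, and in the fit without the filter the same fold change had an adjusted p of 0.000388. The log2 fold change was 0.78 with a pseudocount of 1 and 0.82 under quantile normalization. MOLM-13 libraries held 0.454, 0.655 and 0.388 RPKM with DMSO and 1.09, 0.611 and 0.691 RPKM with FP54. It was under the filter there, and FP54 replicate 2, with 9 reads, fell among the DMSO libraries. Without the filter its log2 fold change was 0.57 in MOLM-13 cells (adjusted p = 0.245) and its difference between the lines was 0.79 (adjusted p = 0.1004). An overlapping gene model, ENSG00000270299, shares 2292 of the 2528 exon bases of SRXN1 on the same strand and was listed at 0 in all 12 libraries, and the part of this overlap in the SRXN1 values was not tested.

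NQO1 (ENSG00000181019, chr16:69706996-69726668, minus strand) encodes the quinone reductase that turns quinones into hydroquinones by a 2-electron transfer from NADH or NADPH, and is a common reporter of NRF2 activity. In NB4 cells it was at 21.1, 24.3 and 23.7 RPKM with DMSO and at 84.3, 81.5 and 81.4 RPKM with FP54. It rose from 23.0 ± 1.69 to 82.4 ± 1.63 RPKM (SD, n = 3), 3.58 times, with a log2 fold change of 1.84 (SE 0.083, adjusted p = 1.27e-07). Of the 8 members tested in NB4 cells this was the largest fitted change. In MOLM-13 cells NQO1 was at 2.22, 1.53 and 1.94 RPKM with DMSO and at 1.96, 1.501 and 1.93 RPKM with FP54, with a log2 fold change of −0.07 (95% interval −0.53 to 0.40, adjusted p = 0.848). An antisense transcript shares 575 of its 2971 exon bases.

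ME1 (ENSG00000065833, chr6:83210402-83431051, minus strand) encodes cytosolic malic enzyme, which makes NADPH while it turns malate into pyruvate. In NB4 cells it was at 15.4, 13.6 and 15.8 RPKM with DMSO and at 22.7, 24.1 and 25.7 RPKM with FP54. It rose 1.62 times, with a log2 fold change of 0.69 (SE 0.092, adjusted p = 0.000149), and this was 0.50 under median-ratio scaling, just under the minimum fold. In MOLM-13 cells ME1 was at 0.598, 1.21 and 0.553 RPKM with DMSO and at 0.343, 0.463 and 0.473 RPKM with FP54. It was under the filter, with 9 to 66 reads per library, and its FP54 libraries all lay below the DMSO libraries. This was so for 17% of the genes that passed the filter, a set without ME1, and the share among genes under it was not counted. Without the filter the log2 fold change was −0.69 (adjusted p = 0.204). In that fit 3.59% of all genes were lower at an adjusted p below 0.05. The difference between the lines without the filter was 1.38 (adjusted p = 0.00654).

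OSGIN1 (ENSG00000140961, chr16:83931311-83966332, plus strand) encodes an oxidative stress-induced growth inhibitor. It had the largest ratio of the 9, from the lowest level. In NB4 cells it was at 0.113, 0.0929 and 0.0242 RPKM with DMSO, from 13, 11 and 3 reads, and at 1.19, 1.31 and 1.49 RPKM with FP54, from 70, 85 and 108 reads. The FP54 mean was 17.3 times the DMSO mean. With a mean of 0.703 RPKM it was not tested in the main comparison. In the fit without the filter its log2 fold change was 3.05 (SE 0.230, adjusted p = 5.27e-05). At an adjusted p below 0.05, 36.8% of 17790 genes were higher in that fit and 12.4% lower. In the MOLM-13 table it was at 0.261, 0.221 and 0.249 RPKM with DMSO and at 0.263, 0.247 and 0.449 RPKM with FP54, and its unfiltered log2 fold change was 0.26 (adjusted p = 0.522). There 4.73% of genes were higher at an adjusted p below 0.05. Its difference between the lines was 2.79 (adjusted p = 5.92e-05). It shares 457 exon bases with MLYCD on the same strand, a gene whose log2 fold change in NB4 cells was 0.24 (adjusted p = 0.0902).

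The level of near-silent genes also differed between the treatments, far more in NB4 than in MOLM-13 cells. The mean over 416 olfactory receptor genes, which myeloid cells do not use, was 0.00168 to 0.00372 RPKM in the DMSO libraries of NB4 cells and 0.0496 to 0.0549 RPKM in the FP54 libraries. In MOLM-13 cells it was 0.00386 to 0.004345 RPKM with DMSO and 0.00473 to 0.00831 RPKM with FP54, without overlap. The FP54 values of OSGIN1 and SRXN1 in NB4 cells lay above 1 RPKM. With this level subtracted from each library, an alternative chosen after seeing the data, the same 5 members were called higher in NB4 cells. The level is small beside their FP54 values, so their calls could hardly have changed by it. OSGIN1, the member nearest this level with DMSO, was under the filter and not in that fit. The part of the raised level in its values was not tested.

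**Figure D2:**
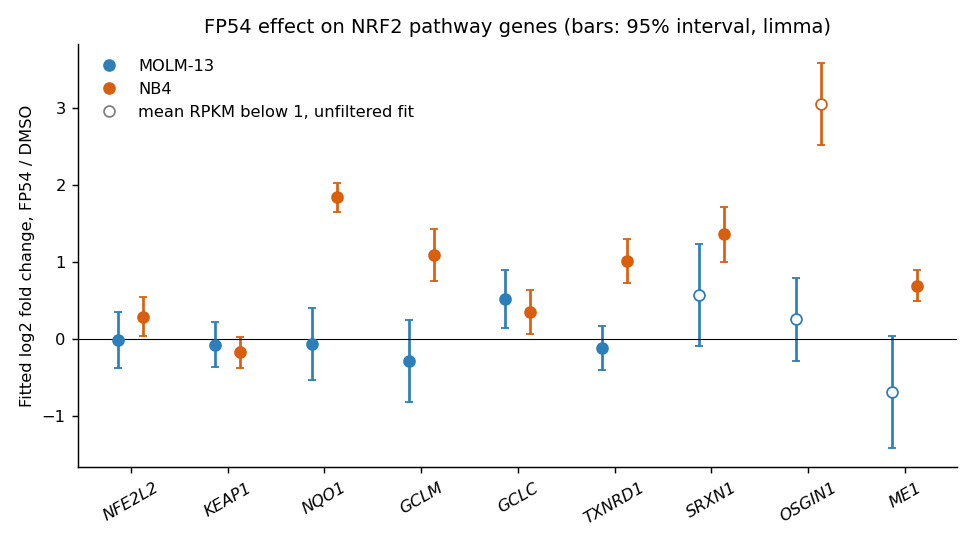
Fitted log2 fold change of FP54 over DMSO for each of the 9 genes in MOLM-13 (blue) and NB4 cells (orange), with bars for the 95% interval of the limma fit and open circles where the mean RPKM was below 1 and the fit without the filter is shown. In NB4 cells the intervals of all but KEAP1 lie above 0, those of NFE2L2 and GCLC by little, whereas in MOLM-13 cells the interval of GCLC does so alone.

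In NB4 cells with DMSO the order of the mean RPKM was KEAP1 (68.8), TXNRD1 (56.7), NQO1 (23.0), ME1 (14.9), NFE2L2 (7.96), GCLC (3.91), GCLM (3.48), SRXN1 (0.673) and OSGIN1 (0.0768). KEAP1 and TXNRD1 overlapped between libraries, as did GCLC and GCLM, and no other neighbours did. With FP54 it was TXNRD1 (113), NQO1 (82.4), KEAP1 (61.0), ME1 (24.2), NFE2L2 (9.68), GCLM (7.52), GCLC (5.03), SRXN1 (1.86) and OSGIN1 (1.33), and no neighbours overlapped. In MOLM-13 cells with DMSO, KEAP1 (28.4) and TXNRD1 (25.8) overlapped at the top, followed by NFE2L2 (8.70), GCLC (2.38), NQO1 (1.90) and GCLM (1.24), and by ME1 (0.788), SRXN1 (0.499) and OSGIN1 (0.244). RPKM is per length of all exons of a gene, and these orders depend on that length. Per length of the canonical transcript, the NB4 means with DMSO and FP54 would be 98.5 and 197 RPKM for TXNRD1, 95.9 and 85.0 for KEAP1, 48.7 and 59.3 for NFE2L2, 8.91 and 11.5 for GCLC and 3.87 and 8.36 for GCLM. TXNRD1 would then lead with FP54, while with DMSO its mean would be close to that of KEAP1 and their libraries would still overlap. GCLC would stand above GCLM with both treatments, and NFE2L2 would be the third with DMSO. With FP54 OSGIN1, at 3.85, would stand above SRXN1, at 1.86. NQO1, at 27.1 and 97.2, was below KEAP1 with DMSO and above it with FP54 on both lengths. The tables of the 2 lines were normalised separately, and their untreated levels are set side by side with no test: NQO1 was at 23.0 RPKM in NB4 and 1.90 in MOLM-13 cells, ME1 at 14.9 and 0.788, and NFE2L2 at 7.96 and 8.70.

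Around these 9, a list of 74 further genes of the pathway, also chosen with earlier results of these data known, was followed in 7 groups. In NB4 cells 60 of them were tested, of which 19 were called higher and 7 lower, where 18.6% and 10.7% of all genes were. At an adjusted p below 0.05 21 were higher and 18 lower, beside 29.8% and 22% of all genes. Their median log2 fold change was 0.08, beside 0.07 over all genes. HMOX1 passed the filter in NB4 cells only through its FP54 libraries, and without it 18 of 59 were called higher. In MOLM-13 cells 58 were tested, 7 were called higher and 2 lower, beside 9.3% and 9.04% of all genes, and the median was 0.03. The counts by group given next are of few genes each and are to be read against these shares, with no test of a group. The median-ratio scaling gave 12 lower in NB4 cells. The effect was larger in NB4 cells for 12 of the 55 tested in both lines and smaller for 4, at an adjusted p below 0.05. Over all 8849 genes so tested the shares were 10.5% and 3.75%.

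Among the partners and regulators of NRF2, 4 of 13 tested were called higher in NB4 cells and 2 lower. MAFG, a small MAF partner of NRF2, moved in opposite directions in the lines. MOLM-13 cells held 34.3, 43.0 and 41.0 RPKM with DMSO and 20.9, 21.7 and 24.5 RPKM with FP54, and the gene fell by 0.81 on the log2 scale (adjusted p = 0.0062). NB4 cells went from 22.4, 23.4 and 22.8 RPKM to 40.7, 41.0 and 38.9 RPKM, a rise of 0.81 (adjusted p = 1.52e-05). Neither line had an overlap between treatments, and the difference between the lines was 1.62 (adjusted p = 8.65e-06). NFE2L1, the related factor that drives proteasome genes, rose in NB4 cells from 37.2, 36.2 and 37.8 RPKM to 98.3, 105 and 92.2 RPKM (log2 fold change 1.404, adjusted p = 5.11e-07) and had a log2 fold change of 0.06 in MOLM-13 cells (adjusted p = 0.795).

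SQSTM1, the autophagy receptor that binds KEAP1, rose in NB4 cells from 7.49, 8.56 and 7.91 RPKM to 17.6, 15.7 and 16.5 RPKM (log2 fold change 1.05, adjusted p = 1.01e-05). In MOLM-13 cells its log2 fold change of 0.75 (adjusted p = 0.0462) was lost as a call when replicate 1 or 3 of DMSO or replicate 1 or 2 of FP54 was dropped, with 0.55 to 0.77. With all libraries kept, that call stood in 9 of 12 other settings of the fit (0.72 to 0.81 over the settings). MAFF, the second small MAF gene, was called higher in NB4 cells at 0.54 (adjusted p = 0.0183), a call that the removal of any library but DMSO replicate 2 ended, with 0.37 to 0.55, as did both other scalings. With all libraries kept, the MAFF call stood in 6 of 11 other settings of the fit (0.13 to 0.57 over the settings). MAFK, the third, had a log2 fold change of −0.34 in NB4 cells (adjusted p = 0.0145) and −0.24 in MOLM-13 cells (adjusted p = 0.284). For BACH1, the repressor at antioxidant response elements, the values were 0.31 in NB4 cells (adjusted p = 0.0958) and 0.41 in MOLM-13 cells (adjusted p = 0.128), and neither was called.

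**Figure D3:**
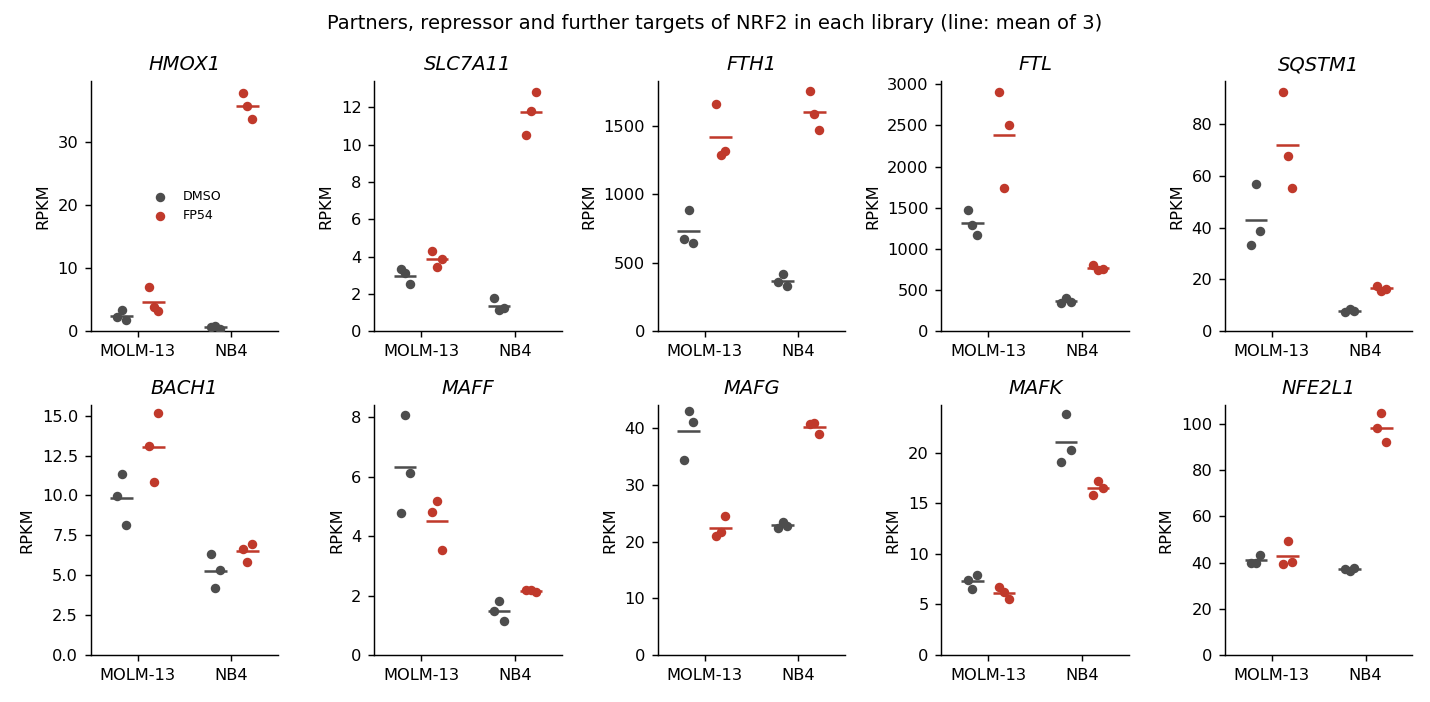
RPKM of HMOX1, SLC7A11, FTH1, FTL, SQSTM1, BACH1, MAFF, MAFG, MAFK and NFE2L1 in each of the 12 libraries, with DMSO in grey, FP54 in red and a line at the mean of each 3. MAFG falls from above 34 to below 25 RPKM in MOLM-13 cells and rises from about 23 to about 40 RPKM in NB4 cells, and HMOX1, SLC7A11 and NFE2L1 separate by treatment clearly in NB4 cells.

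In the glutathione group 4 of 13 tested were called higher in NB4 cells and 1 lower, and in MOLM-13 cells 0 of 14 were called in either direction with limma, with 3 higher and 0 lower at an unadjusted p below 0.05 and 2 higher and 0 lower by limma-voom. SLC7A11, the cystine importer that feeds glutathione synthesis, rose in NB4 cells from 1.76, 1.11 and 1.26 RPKM to 10.5, 11.8 and 12.8 RPKM, a log2 fold change of 3.02 (adjusted p = 3.17e-07). In MOLM-13 cells it was 0.37 (adjusted p = 0.166), and the difference between the lines was 2.65 (adjusted p = 5.18e-06). GSTM2, a glutathione transferase, rose in NB4 cells by 1.17 on the log2 scale (adjusted p = 0.000333), which was 0.76 with a pseudocount of 1 or under quantile normalization. In MOLM-13 cells GSTM2 was under the filter and not tested, at 0.484, 0.444 and 0.398 RPKM with DMSO and 1.41, 0.659 and 1.07 RPKM with FP54. The ratio of means was 2.37 there and 2.32 in NB4 cells, so the rise is not shown to be particular to NB4 cells.

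In the thioredoxin group 1 of 10 was called higher in NB4 cells and 2 lower, and 7 were lower at an adjusted p below 0.05, beside 22% of all genes. PRDX4, the peroxiredoxin of the endoplasmic reticulum, fell from 55.8, 63.2 and 68.5 RPKM to 27.8, 31.6 and 29.4 RPKM (log2 fold change −1.07, adjusted p = 1.11e-05). In MOLM-13 cells PRDX4 had a log2 fold change of −0.58 (adjusted p = 0.117), and it was past the cutoff without DMSO replicate 2, at −0.86. SESN2, a stress-induced gene that is also a target of ATF4 and p53, was the one called higher, from 1.29, 1.34 and 0.853 RPKM to 5.32, 6.31 and 4.75 RPKM (log2 fold change 2.16, adjusted p = 5.68e-06). In MOLM-13 cells its log2 fold change was −0.48 (adjusted p = 0.131).

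Of the quinone and carbonyl enzymes, 2 of 9 tested were called higher in NB4 cells, and 3 of 8 higher and 1 lower in MOLM-13 cells. PIR, an iron-binding nuclear protein, rose in NB4 cells from 1.12, 1.36 and 1.60 RPKM to 7.59, 7.39 and 7.49 RPKM (log2 fold change 2.39, adjusted p = 4.27e-07) and was at 0.602 to 0.904 RPKM in all MOLM-13 libraries. NQO2, the relative of NQO1, rose in MOLM-13 cells from 7.15, 6.85 and 5.87 RPKM to 16.97, 12.8 and 12.5 RPKM (log2 fold change 1.07, adjusted p = 0.00424), where NQO1 did not pass the test. In NB4 cells NQO2 had 0.47 (adjusted p = 0.00299), under the minimum fold, and without DMSO replicate 2 it passed at 0.55. AKR1B1, an aldose reductase, fell in MOLM-13 cells by 1.06 (adjusted p = 0.0167) and had −0.13 in NB4 cells (adjusted p = 0.201). EPHX1, an epoxide hydrolase, was called higher in both lines, at 0.54 in MOLM-13 (adjusted p = 0.0497) and 0.51 in NB4 cells (adjusted p = 0.00162). Without any 1 library the MOLM-13 call was lost, with 0.47 to 0.65, as was the NB4 call without DMSO replicate 1 (0.44) or FP54 replicate 2 (0.49), and the MOLM-13 call was also lost with the replicate number as a block (adjusted p = 0.0822). With all libraries kept, the MOLM-13 call stood in 7 of 11 other settings of the fit (0.42 to 0.57 over the settings). The NB4 call stood in 9 of 12 (0.31 to 0.52).

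PGD, the NADPH-making phosphogluconate dehydrogenase, was the 1 of 5 genes of NADPH supply called in NB4 cells, with a rise of 0.66 on the log2 scale (adjusted p = 9.06e-05) from 69.1, 73.2 and 77.0 RPKM to 121, 116 and 109 RPKM. Under median-ratio scaling it was at 0.46, short of the minimum fold. The heme and iron group was the one whose tested genes were all called higher in NB4 cells, 7 of 7, with 3 of 6 in MOLM-13 cells. HMOX1, at a mean of 0.620 RPKM with DMSO and 35.8 RPKM with FP54 in NB4 cells, passed the filter there only through FP54, and without it 6 of 6 were called. In MOLM-13 cells a gene of the group that was not called passed only through FP54, and without it 3 of 5 were called higher. HMOX1, heme oxygenase, had a log2 fold change of 5.71 in NB4 cells and 0.89 in MOLM-13 cells (adjusted p = 0.0676), the latter past the cutoff without DMSO replicate 2 (1.13) or FP54 replicate 3 (1.12), and with the replicate number as a block (adjusted p = 0.0369). FTH1, ferritin heavy chain, had 2.12 (adjusted p = 3.17e-07) and 0.96 (adjusted p = 0.00745), and BLVRB, a biliverdin reductase, 1.29 (adjusted p = 2.62e-05) and 1.23 (adjusted p = 0.00466). Of the 3 superoxide and peroxide enzymes, SOD1 fell by 0.62 (adjusted p = 0.000284) and SOD2 by 0.71 (adjusted p = 0.000275) in NB4 cells, and neither was called in MOLM-13 cells, at −0.13 and 0.04. Under quantile normalization SOD1 was at −0.41 in NB4 cells, short of the minimum fold.

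**Figure D4:**
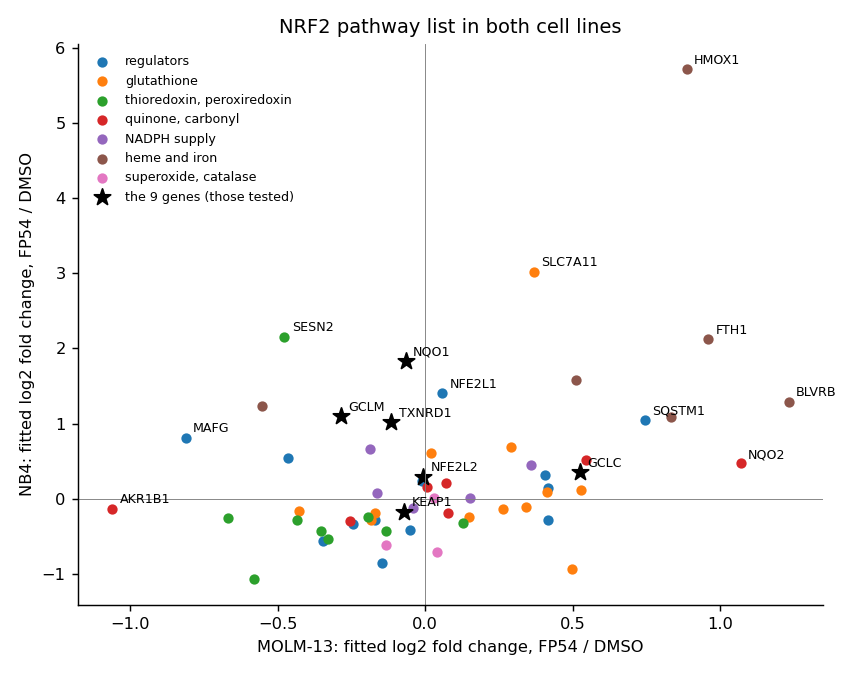
Fitted log2 fold change of FP54 over DMSO in MOLM-13 cells (x axis) against NB4 cells (y axis) for the pathway genes tested in both lines, coloured by group, with the members as stars. HMOX1, SLC7A11, SESN2 and NQO1 stand high in NB4 cells at log2 fold changes between −0.48 and 0.89 in MOLM-13 cells, whereas FTH1 and BLVRB are raised in both.

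The profiles most like those of the members were sought over the 12 libraries, as Pearson's r of log2 values after the DMSO mean of each line was taken off, among 8843 genes. Closest to NFE2L2 were ZNF141 (r = 0.931), CAPZA2 (0.927), ZNF107 (0.925), ZMYM2 (0.924) and ZNF267 (0.922). Closest to the mean of the 7 target genes were BACE1 (0.994), GPR160 (0.990), TM6SF1 (0.990), WARS1 (0.989) and TNFRSF10B (0.989). NFE2L2 itself had an r of 0.720 with that mean, and GCLC 0.366, the lowest of the 7 targets. The points share treatment, line and depth, so these values describe the pattern and carry no test.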

How the data were processed

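The RNA-seq libraries of both lines were used, 3 per line and treatment (FP54 at 2 μM, or DMSO, over 48 hours). These were 12 of the 22 samples in the labels, and the other 10 (m6A-seq and polysome-seq) were not analysed here. Columns name treatment and replicate, and the line of each table rests on the table's name. According to the authors, reads were trimmed with Cutadapt 4.8, deduplicated, aligned to hg38 with STAR 2.7.11b and assigned to protein-coding genes by featureCounts 2.0.3, and the deposited values are RPKM. DESeq2 is named in the submitters' processing notes.

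Multiplying the RPKM by exon lengths of a later GENCODE release gave whole reads, within 0.05 reads for 98.55 to 99.28% of values of at most 50 reads, and was kept for 20149 (MOLM-13) and 20140 (NB4) genes. Library totals give depth, and removal of duplicates and counting of shared exons can change levels. Limma 3.58.1 in R 4.3.3 (lmFit, eBayes with trend) was fitted to log2(RPKM + 0.1), which understates changes of low genes, where a gene's mean reached 1 RPKM. Calls, with the cutoff of the study's methods, used p below 0.01 and a log2 change of 0.5 or more in size. The interaction used all 12 libraries in 1 fit. The smallest exact permutation p of 3 against 3 is 0.1. The scripts were tested on simulated data. Python 3.11.15, numpy 2.4.6, pandas 2.3.3 and matplotlib 3.10.9 were used.

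The members and lists were chosen with earlier results of these data known. Named were the 9 members, HMOX1, SLC7A11, SQSTM1, BACH1, the 3 small MAF genes and, per group and line, up to 2 called pathway genes with the largest change. HNRNPA3, MLYCD, FTO, SPI1, MPO, EPCAM and KRT19 bear on the counting or the labels. The alternatives were pseudocounts of 1 and 0.01, no filter, a filter at 5 RPKM, median-ratio scaling, quantile normalization, a replicate block, eBayes without trend or robust, adjusted p alone, limma-voom on recovered reads, leaving out each library (for the interaction, of both lines), and, chosen after seeing the data, subtraction of the mean olfactory receptor level.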

Additional observations from a re-analysis of the deposited data

Results flagged for a closer look

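The effect of FP54 differed between NB4 and MOLM-13 cells, by the interaction term of the limma model at an adjusted p below 0.05, for 13 of the genes named above. Of the members these were NQO1, with a log2 difference (NB4 minus MOLM-13) of 1.904, GCLM, with 1.381, and TXNRD1, with 1.13. Among the regulators the difference was 1.624 for MAFG, 1.346 for NFE2L1 and 1.003 for MAFF. It was 1.16 for FTH1 in the heme and iron group and 4.823 for HMOX1, a gene that passed the filter in NB4 cells only through its FP54 libraries, and 2.651 for SLC7A11 and 2.632 for SESN2. AKR1B1 had a difference of 0.9307, with its fall in MOLM-13 cells, PGD had 0.8442, and SOD2, the one with a more negative effect in NB4 cells, had −0.751. Of the 13, 3 were lost when 1 replicate number was left out of both lines. MAFF did not pass without DMSO replicate 3 or any FP54 replicate (0.84 to 1.11), AKR1B1 without replicate 1 or 3 of either treatment (0.76 to 0.99), and SOD2 without DMSO replicate 3 (−0.68) or FP54 replicate 3 (−0.66).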

How the results depend on the processing

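In NB4 cells the 5 members called higher stayed 5 under leaving out any library, and numbered 4 to 6 under the other settings, with 0 lower throughout. In MOLM-13 cells the members called higher went from 0 to 1, GCLC, under median-ratio scaling, quantile normalization, eBayes without trend and limma-voom, and were 0 to 1 when 1 library was left out. The interaction called 5 members without a filter and 1 with a filter at 5 RPKM, which leaves fewer genes, against 3, and 3 without any replicate. With the filter at 5 RPKM the pathway counts were 12 higher in NB4, 1 lower in MOLM-13 cells, and 5 higher and 2 lower by the interaction. Median-ratio scaling moved the median of all genes in NB4 cells from 0.07 to −0.13, giving 12 pathway genes lower there and 10 lower by the interaction, and quantile normalization gave 7 by the interaction. By adjusted p alone 18 were lower in NB4 cells. Leaving out 1 library gave 3 to 8 pathway genes higher in MOLM-13 cells (3 without DMSO replicate 3, 4 without FP54 replicate 1) and 2 to 5 lower (5 without DMSO replicate 2), and 1 to 3 lower by the interaction (2 without DMSO replicate 3 or FP54 replicate 1, 1 without FP54 replicate 3). The causes were not tested.

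Uncalled values near 0 changed sign. NFE2L2 in MOLM-13 cells was 0.00857 under quantile normalization and 0.00511 under limma-voom, and −0.0947 to 0.135 with 1 library left out. So did NQO1 (−0.205 to 0.0523), NFE2L1 (−0.0459 to 0.119) and SOD2 (−0.0136 to 0.116) in MOLM-13 cells, and the differences between lines of KEAP1 (−0.183 to 0.0493), BACH1 (−0.355 to 0.042), MAFK (−0.185 to 0.0699), BLVRB (−0.128 to 0.269) and EPHX1 (−0.207 to 0.108). The BLVRB difference was −0.20 with a pseudocount of 1, −0.11 under median-ratio scaling and −0.26 under quantile normalization, and that of EPHX1 was 0.0389 with a pseudocount of 1. Samples of the same replicate number were not alike (correlations −0.262, −0.134 and −0.058 in MOLM-13, −0.143, 0.075 and 0.123 in NB4). Across numbers, MOLM-13 libraries had higher ones: 0.593 (DMSO 1 with FP54 3), 0.494 (DMSO 2 with FP54 1) and 0.475 (DMSO 3 with FP54 2). A block by number does not follow these pairs, and what they share was not tested. With the replicate numbers as a block, 0 members were higher in MOLM-13 and 5 in NB4 cells, and 3 differed between lines. Pathway counts were then 8 higher and 2 lower, 19 and 7, and 10 and 3. Of the named genes, the calls of HMOX1 and EPHX1 in MOLM-13 cells and the difference of AKR1B1 (adjusted p = 0.0775) changed. The shallowest library, at 5833284 reads, limits what can be said of SRXN1, OSGIN1 and ME1 in MOLM-13 cells.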
